A study of Mus musculus with 16 samples.

Results

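The genes described here are 43 interferon-stimulated genes of the mouse, listed by symbol from general knowledge of the interferon response. No value in these libraries served as a rule for the list, but it was drawn up with earlier results of these data known. Of them, 41 were in both deposited tables, which hold 17361 and 17318 genes, and Mx1 and Mx2 were not analysed here. The libraries are 16 bulk RNA libraries from handpicked pancreatic islets, 4 in each of 4 groups. Flox mice are C57BL/6J mice homozygous for Vtcn1, the gene of the immune checkpoint molecule B7-H4, with loxP sites around exon 2, and B7-H4 cKO mice carry the same alleles and a Rip-Cre transgene, in which the rat insulin II promoter drives Cre recombinase in β cells. Both of these groups were on normal chow, and their age is not given in the sources used here. The mice of the other groups were 6 weeks old at the start, were fed a high-fat diet (HFD) for 8 weeks and then received through the pancreatic duct an adeno-associated virus with a B7-H4-ZSGreen sequence behind the rat insulin 2 promoter (H-ins2-O, called OE) or a control virus (H-ins2-C, called Ctrl), and islets were taken 5 weeks later. The paper calls the mice that received virus Flox mice and the series' design text calls them WT. The animals carry numbers, and the libraries are named by them as Flox16, Flox17, Flox20 and Flox21, cKO8, cKO9, cKO12 and cKO38, Ctrl1, Ctrl2, Ctrl3 and Ctrl5, and OE1 to OE4.

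Interferons are secreted proteins that put cells into an antiviral state. Type I interferons act on the Ifnar1 and Ifnar2 receptor, whose kinases Jak1 and Tyk2 switch on a transcription factor complex with Stat2 and Irf9 that binds the interferon-stimulated response element of its target genes. Interferon gamma, made by activated T lymphocytes and natural killer cells, acts on Ifngr1 and Ifngr2 through Jak1 and Jak2 and leads to binding at gamma-activated sites, with the guanylate-binding proteins (GBP) and the immunity-related GTPases (IRG) among the genes induced most strongly. In islets the response is best known from virus infection and from autoimmune diabetes, where β cells raise MHC class I molecules.

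The response element can be read in the promoters of many of these genes, and a few are printed here for genes described below. No relation between the element and the levels was tested. RefSeq promoters of build GRCm38.p6, 250 bases before to 50 bases after a gene start, were matched by symbol for 32 of the 43 genes. The core searched was GAAANNGAAA on either strand, overlapping matches included. It was found for 20 of these 32 genes (62.5%), against 3.99% of the 27025 genes in the promoter table and 3.44% of its 32851 promoters. The windows below are 30 bases long and run 5′ to 3′ along the gene's strand, with the matched letters in capitals.
Isg15, minus strand, chr4:156200871-156200900: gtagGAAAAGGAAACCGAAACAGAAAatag
Ifit1, plus strand, chr19:34640794-34640823: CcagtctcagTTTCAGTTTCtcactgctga
Gbp2, plus strand, chr3:142620594-142620623: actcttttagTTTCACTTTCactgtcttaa
Gbp3, plus strand, chr3:142559992-142560021: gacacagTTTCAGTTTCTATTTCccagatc
Igtp, plus strand, chr11:58199512-58199541: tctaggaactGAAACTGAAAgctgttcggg
Irgm1, minus strand, chr11:48871428-48871457: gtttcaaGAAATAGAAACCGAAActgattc
Rsad2, minus strand, chr12:26456553-26456582: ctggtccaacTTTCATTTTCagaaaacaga
Ddx58, minus strand, chr4:40239804-40239833: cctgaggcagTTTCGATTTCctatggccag

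Isg15 held 3 overlapping matches, the first of which began 78 bases before the gene start. The match began 59 bases before the start in Gbp2, 45 in Gbp3, 34 in Igtp and 30 in Irgm1, so the GTPase genes shown carried it close to the start. In Ifit1 one match lay 85 bases and another 104 bases before the start, and the capital letter at the left edge of its window is the end of that other match. In Ddx58, the RNA sensor RIG-I, the match began 2 bases after the start. Irf7, Cmpk2 and Samd9l had a promoter in the table without these letters. The gamma-activated site TTCNNNGAA was found for 8 of the 32 genes (25%), among them Irf1, Igtp, Gbp7 and Bst2, against 9.55% of all genes in the promoter table.

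The values are FPKM, fragments per kilobase of transcript, scaled to the library's mapped reads, as the authors calculated them. Low values fell into whole steps of 1 fragment, from which the depth was estimated at roughly 28.4 to 36.6 M fragments per library. The 2 tables were normalized separately, so levels set across them were not tested. Digestive enzyme genes of acinar cells, the exocrine cells around islets, took 7.14 to 34.0% of all FPKM in Flox, 34.8 to 44.0% in cKO, 2.03 to 70.1% in Ctrl and 10.5 to 13.8% in OE libraries, with Ctrl3 and Ctrl2 highest at 70.1% and 54.0%. Islet identity was checked by β-cell genes, which took 25.8 to 54.7% of FPKM in the chow libraries and 4.37 to 55.0% in the HFD libraries. Vtcn1 was at 40.0 to 128 FPKM in OE against at most 0.371 FPKM in Ctrl libraries, and at 0.0188 to 0.216 FPKM in Flox and 0.0202 to 0.125 FPKM in cKO, levels too low to check the deletion. In bulk islets, fewer cells of a type and less RNA per cell cannot be told apart.

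Most of these genes were low in islets. The median of the 41 mean levels over all libraries was 2.40 FPKM, 31 genes were at or above 1 FPKM and 6 at or above 10 FPKM. The plot of levels by library shows the order from Lgals3bp down to Oas3.

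**Figure D1:**
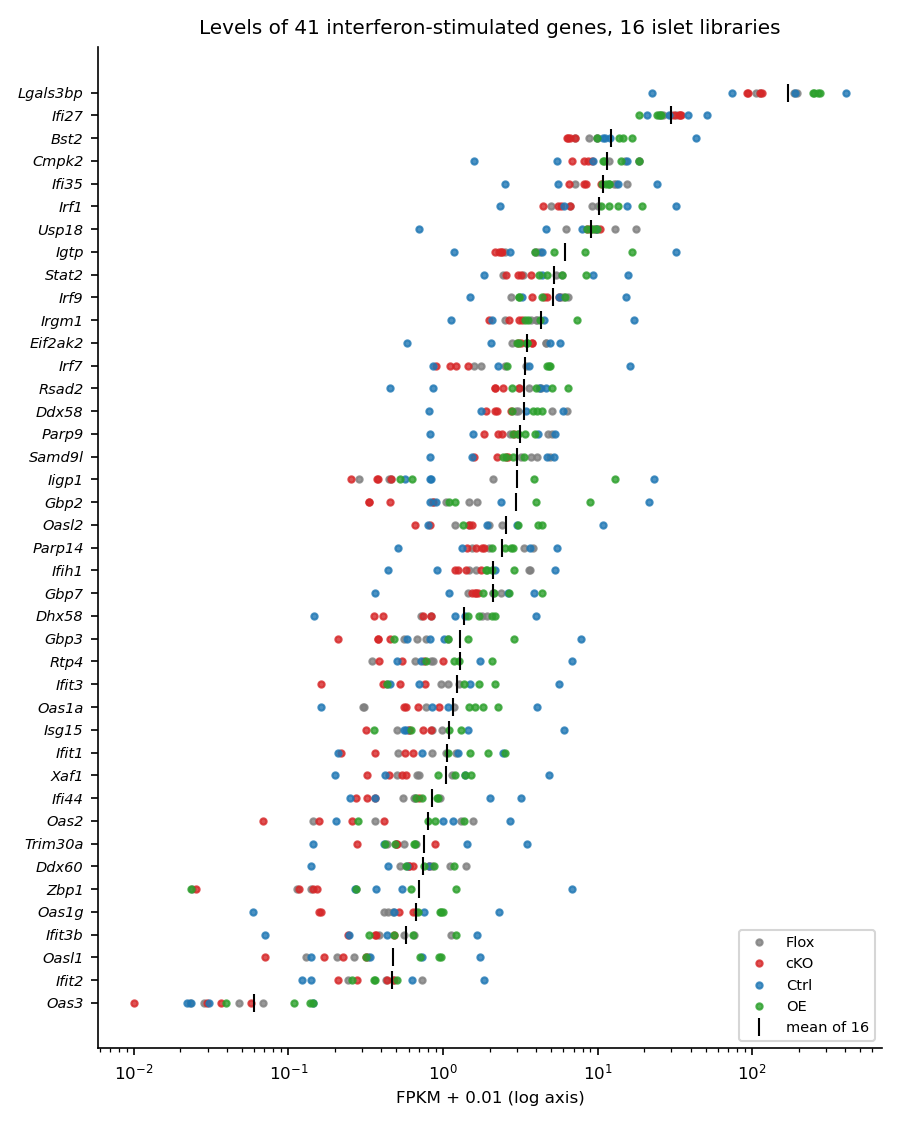
FPKM + 0.01 on a log axis for 41 genes, 1 point per library coloured by group, with the mean of all 16 libraries as a black bar. Lgals3bp lies highest, with a mean of 172 FPKM, and Oas3 lowest, with a mean of 0.0497 FPKM and a value of 0 in cKO38.

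Lgals3bp, a secreted glycoprotein that binds galectin, stood far above the rest. It was at 113, 106, 187 and 194 FPKM in Flox16, Flox17, Flox20 and Flox21, while cKO8, cKO9, cKO12 and cKO38 had 112, 92.1, 116 and 94.0 FPKM. It was at 190, 74.3, 22.4 and 407 FPKM in Ctrl1, Ctrl2, Ctrl3 and Ctrl5 and at 275, 249, 265 and 251 FPKM in OE1 to OE4. Flox20 and Flox21 were the high chow libraries, while Flox16 and Flox17 lay within the range of cKO, and the Ctrl libraries spread on each side of OE.

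Ifi27, a small mitochondrial and nuclear envelope protein, was next and had the smallest spread of the tested members in chow. It was at 29.9, 32.4, 25.1 and 26.7 FPKM in Flox and at 34.1, 34.4, 31.1 and 33.5 FPKM in cKO, in the order of libraries used above. It was at 20.9, 38.6, 29.1 and 51.2 FPKM in Ctrl and at 25.7, 18.5, 25.4 and 24.1 FPKM in OE. Ifi27 was 1 of only 2 members with a positive fold change in cKO, the other being Oas1a, and its groups overlapped there. After each library was divided by its median-of-ratios factor, Ifi27 was highest of the HFD libraries in the acinar-rich Ctrl3 (86.2) and Ctrl2 (59.4), against 14.4 to 34.8 in the other HFD libraries.

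Bst2, the membrane tether that holds budding virus on the cell, averaged 12.2 FPKM. It was at 9.97, 9.91, 7.13 and 8.80 FPKM in Flox and at 6.63, 6.33, 7.09 and 6.40 FPKM in cKO. It was at 12.03, 11.2, 10.9 and 43.6 FPKM in Ctrl and at 13.7, 9.84, 14.7 and 16.8 FPKM in OE. In chow every cKO library lay below every Flox library, and on HFD the Ctrl5 value was 3.62 times the next Ctrl library. After median-of-ratios scaling that order turned, with Bst2 at 32.3 in Ctrl3 and 29.6 in Ctrl5. Ifi35, a partner of Nmi in cytokine signalling, was at 12.8, 7.19, 13.2 and 15.6 FPKM in Flox and at 10.5, 8.13, 8.38 and 6.52 FPKM in cKO. It was at 13.6, 5.50, 2.51 and 24.1 FPKM in Ctrl and at 11.8, 11.8, 10.6 and 11.4 FPKM in OE, so that its OE libraries lay inside the span of Ctrl.

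The order of neighbours in this list was not firm. Bst2, Cmpk2, Ifi35 and Irf1, with means of 12.2, 11.4, 10.8 and 10.3 FPKM, overlapped over the libraries. The sensors, OAS and IFIT genes were mostly low, and Oas3 rested on 0 to 9 steps in the chow libraries and 2 to 23 in the HFD libraries. Where the exons of neighbours overlap, fragments may also be shared. Overlaps on the same strand covered 15.2% of the exon bases of Rtp4, 11.3% of Gbp7 and 8.01% of Igtp. On the opposite strand they covered 17.4% of Ifi35 and 10.3% of Parp9. Sharing there depends on the strand setting of the counting, which is not given. Ifit3 and Ifit3b, and Oas1a and Oas1g, are near copies of each other whose fragments the counting may have split, so that their separate values are uncertain.

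The first comparison asked how these genes differ between cKO and Flox islets on chow. Only the cKO mice carry Rip-Cre, and none of the 4 groups has the transgene alone, so transgene and deletion cannot be told apart. The paper reports that glucose tolerance was impaired at an early age in Rip-Cre mice too, though less than in cKO. In cKO islets, 6 interferon-stimulated genes were lower than in Flox islets and none was higher at an adjusted p under 0.05. They were Cmpk2, a mitochondrial nucleotide kinase, Gbp2 and Gbp3, guanylate-binding proteins that attack vacuoles of intracellular microbes, Samd9l, a restriction factor that blocks translation, Ddx58, and Irf7, the transcription factor that amplifies type I interferon expression. These 6 are 16.7% of the 36 genes tested, beside 12.8% of all 11804 genes tested that were lower by the same rule, so the share lay near that of islet genes at large. Of all genes tested, 1.02% were higher. None of the 6 changed by more than 1 on the log2 scale.

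Cmpk2 was at 14.99, 11.8, 18.7 and 18.4 FPKM in Flox16, Flox17, Flox20 and Flox21, while cKO8, cKO9, cKO12 and cKO38 had 9.23, 8.11, 8.65 and 6.85 FPKM. All cKO libraries lay below all Flox libraries, with Flox17 nearest to them. The mean fell from 15.98 ± 3.24 to 8.21 ± 1.02 FPKM (SD, n = 4 each), a log2 fold change of -0.91 ± 0.19 (SE, limma adjusted p = 0.0148). The adjusted p of Cmpk2 ran from 0.000514 to 0.685 over the 20 alternatives, highest with acinar enzyme level as a covariate, where its log2 fold change was -0.53.

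Gbp2 was at 1.04, 0.851, 1.47 and 1.66 FPKM in Flox and at 0.323, 0.446, 0.857 and 0.321 FPKM in cKO, with cKO12 a shade above Flox17. Its log2 fold change was -0.84 ± 0.21 (adjusted p = 0.0242, 0.0027 to 0.825 over the alternatives). Gbp3 was at 1.07, 0.664, 0.554 and 0.767 FPKM in Flox and at 0.441, 0.201, 0.370 and 0.370 FPKM in cKO, without overlap. Its log2 fold change was -0.57 ± 0.19 (adjusted p = 0.0483, 0.0194 to 0.746 over the alternatives), the largest adjusted p of the 6, and 0.0508 with a pseudocount of 1.

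Ddx58 was at 3.03, 2.96, 5.06 and 6.32 FPKM in Flox and at 2.74, 2.24, 1.90 and 2.17 FPKM in cKO. The groups did not overlap, but Flox16 and Flox17 lay closer to cKO8 than to Flox20 and Flox21. The log2 fold change was -0.76 ± 0.22 (adjusted p = 0.0353, 0.00583 to 0.940 over the alternatives). With the acinar covariate it was -0.12.

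Irf7 was at 1.76, 2.51, 1.57 and 3.42 FPKM in Flox and at 1.10, 0.893, 1.45 and 1.20 FPKM in cKO, again without overlap. Its high Flox libraries, Flox17 and Flox21, were the ones with most and least acinar RNA. The log2 fold change was -0.73 ± 0.21 (adjusted p = 0.0356, 0.00945 to 0.800 over the alternatives) and -0.57 with the acinar covariate. Samd9l was at 3.72, 3.21, 4.07 and 4.94 FPKM in Flox and at 2.55, 1.58, 2.24 and 2.61 FPKM in cKO, without overlap and with a log2 fold change of -0.71 ± 0.20 (adjusted p = 0.0312, 0.00527 to 0.800 over the alternatives).

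In 8 of the 36 genes (22.2%) every cKO library was below every Flox library, and in none above, beside 15.4% and 1.32% of all genes tested. These 8 were 5 of the 6 named above, without Gbp2, and Rsad2, Igtp and Bst2. Rsad2, or viperin, an antiviral enzyme that makes a chain-terminating nucleotide, lies next to Cmpk2 on chromosome 12 (26442743 to 26456452, with Cmpk2 at 26469117 to 26479837). Rsad2 was at 3.11, 3.61, 4.14 and 4.29 FPKM in Flox and at 3.09, 2.42, 2.15 and 2.17 FPKM in cKO, so that Flox16 and cKO8 nearly met, and its log2 fold change of -0.54 ± 0.19 did not pass (adjusted p = 0.0555). Igtp, an IRG GTPase, was at 3.92, 2.53, 4.23 and 4.04 FPKM in Flox and at 2.37, 2.41, 2.16 and 2.30 FPKM in cKO, with Flox17 just above the cKO libraries (log2 fold change -0.55 ± 0.19, adjusted p = 0.0544). Bst2 had a log2 fold change of -0.40 ± 0.18 (adjusted p = 0.0998).

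**Figure D2:**
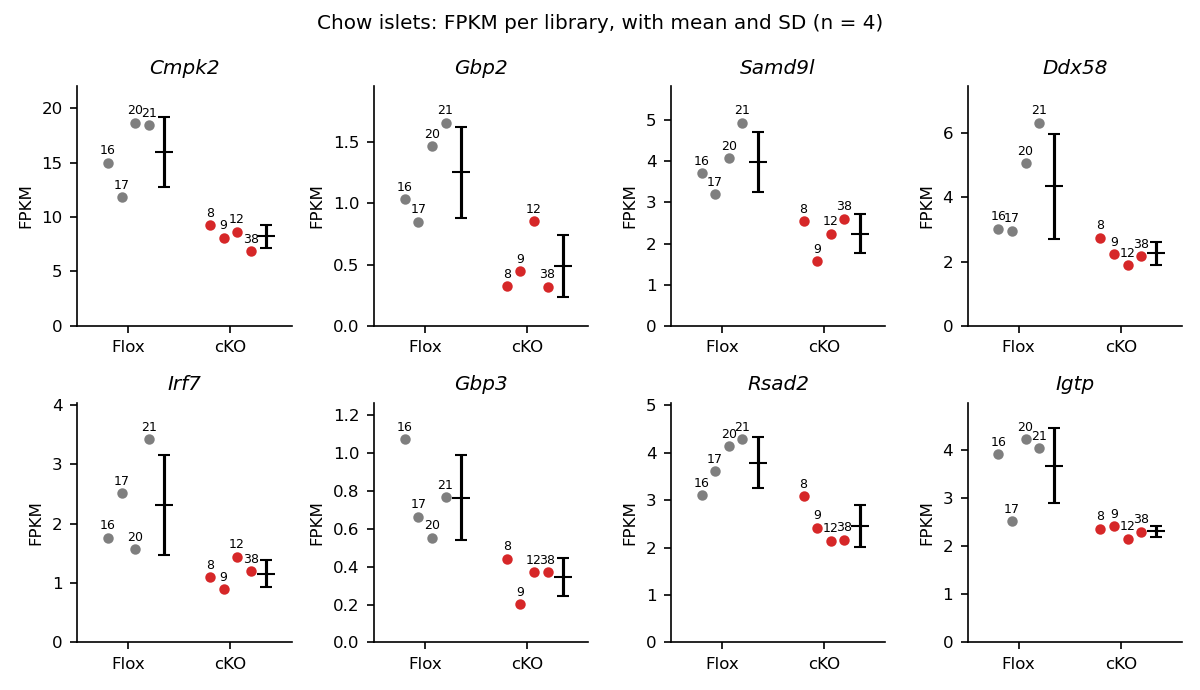
FPKM of 8 genes in each Flox and cKO library, marked by library number, with the group mean and SD as a black bar (n = 4). The cKO libraries lie below the Flox libraries in each panel except for cKO12 in Gbp2, and Flox17 is the Flox library nearest to cKO for Cmpk2, Gbp2, Samd9l, Ddx58 and Igtp.

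Grouped by role, the sensors of foreign RNA and DNA had the lowest median. All 4 sensors tested had negative log2 fold changes, with a median of -0.67, and Ddx58 passed. Ifih1, the sensor MDA5, had -0.63 and Dhx58, which tunes both RNA sensors, had -0.71 (adjusted p = 0.0702 and 0.0515). Dhx58 was at 0.713, 0.826, 1.77 and 1.92 FPKM in Flox and at 0.822, 0.730, 0.349 and 0.397 FPKM in cKO, so its Flox libraries were split and Flox16 lay among the cKO libraries. Zbp1, a nucleic acid sensor that triggers cell death, was at 0.265, 0.104, 0.0139 and 0.130 FPKM in Flox and at 0.107, 0.0154, 0.135 and 0.143 FPKM in cKO, too low to be tested.

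The 3 IFIT genes tested, which bind foreign RNA at the ribosome, had a median of -0.57 and none passed. Of the OAS family, which makes the signal that switches on RNase L, 3 genes were tested with a median of -0.50, and Oas2 had the widest chow spread of all members. Oas2 was at 0.351, 0.134, 1.30 and 1.55 FPKM in Flox and at 0.405, 0.147, 0.246 and 0.0588 FPKM in cKO. Flox20 and Flox21 alone were high, and the log2 fold change of -0.76 ± 0.37 did not pass (adjusted p = 0.149).

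The 6 GTPases had a median of -0.49, all were negative and Gbp2 and Gbp3 passed. Iigp1 was at 2.08, 0.436, 0.277 and 0.452 FPKM in Flox and at 0.372, 0.450, 0.243 and 0.365 FPKM in cKO. Flox16 alone was high, at 4.61 times the next Flox library, and the other libraries of both groups overlapped. The 4 transcription factors had a median of -0.36, with Irf7 alone past the test and Irf9 at -0.11. Isg15, a ubiquitin-like modifier, and Usp18, the protease that removes it, had -0.15 and -0.22 and did not pass. Isg15 was at 0.842, 0.978, 0.596 and 0.497 FPKM in Flox and at 0.830, 0.307, 0.728 and 0.589 FPKM in cKO, fully overlapping. The 14 other effectors had a median of -0.45, and Cmpk2 and Samd9l passed.

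Over the 36 genes, 34 had a negative log2 fold change and 20 an unadjusted p under 0.05. Of all 11804 genes tested, 10258 were negative, and 4526 lower and 368 higher had an unadjusted p under 0.05. The median of the 36 genes was -0.46, beside -0.34 for all genes tested, so that relative to islet genes at large it was -0.12. Relative to that shift, the log2 fold changes were -0.56 for Cmpk2, -0.50 for Gbp2, -0.42 for Ddx58, -0.38 for Irf7, -0.37 for Samd9l and -0.23 for Gbp3. With median-of-ratios scaling the median of all genes was close to 0 and that of the 34 members tested was -0.16. Of these members 23 were negative, beside 5917 of all 11782 genes tested. Only Cmpk2 passed (log2 fold change -0.54 ± 0.07, adjusted p = 0.0216), beside 1.25% of all genes lower and 1.13% higher. That scaling moves all genes together, so role medians are given relative to the median of all genes, as deposited and then scaled. They were -0.33 and -0.37 for the sensors, -0.23 and -0.37 for the IFIT genes, -0.15 and -0.24 for the GTPases, and 0.16 and 0.10 for Isg15 with Usp18. The OAS genes had -0.16 from 3 genes and 0.07 from the 2 still tested, since Oas2 was no longer among them. After scaling, the groups did not overlap for Cmpk2 and Ddx58, lower in cKO (5.56% of members, beside 7.7% of all genes), and for Eif2ak2, the kinase PKR, higher in cKO (2.78%, beside 6.83%).

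**Figure D3:**
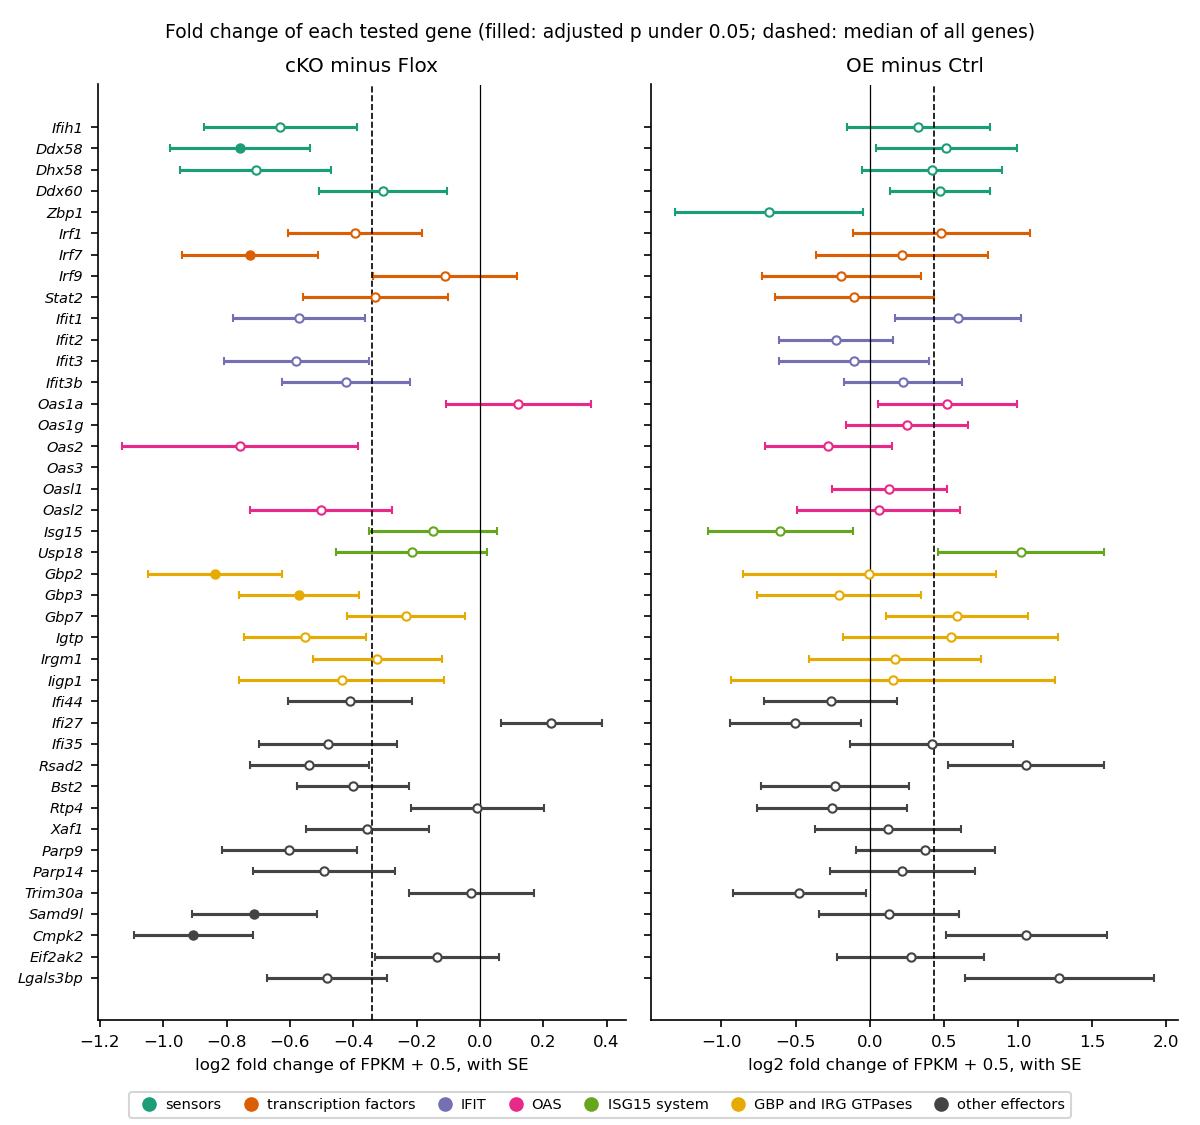
Log2 fold change of FPKM + 0.5 with its SE for each tested gene, coloured by role, cKO minus Flox on the left and OE minus Ctrl on the right. Filled points passed an adjusted p of 0.05, and the dashed line is the median of all genes tested, at -0.34 and 0.44. The 6 filled points are Ddx58, Irf7, Gbp2, Gbp3, Samd9l and Cmpk2, all on the left.

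Acinar RNA differed between the groups as well. Acinar enzymes took more of the FPKM in every cKO library than in any Flox library, so genotype and acinar share cannot be told apart in the groups as a whole. Their summed level ran from 48989 to 265067 FPKM in Flox and from 256986 to 336951 FPKM in cKO, all 19 enzymes listed being present in every library of both groups. With acinar level as a covariate in limma, 0 of the 36 genes passed, beside 0 of all 11804 genes tested. Of the 36, 4 had an unadjusted p under 0.05, beside 415 lower and 345 higher of all genes. The median of the 36 was -0.05, beside -0.01 for all genes. The pair of libraries nearest in acinar share was Flox17 (34.0%) and cKO8 (34.8%), and there each of the 6 called genes was higher in Flox17. For Cmpk2, Samd9l, Ddx58, Irf7 and Gbp3 this was fixed in advance. Every Flox library lay above every cKO library in those genes, so any pair gave that order. Over all 36 genes 16 were higher in Flox17 (44.4%), beside 30.5% of all genes tested. Flox17 and cKO8 are 1 library each, they also took part in choosing the 6, and no test was made.

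Macrophage markers, 11 of 11 present, summed to 54.2 to 120 FPKM in Flox and 61.3 to 82.3 FPKM in cKO, overlapping. With their level as a covariate only Cmpk2 passed, beside 0.398% of all genes lower and 0.102% higher. The part of macrophages in the result was not tested beyond that fit. T-lymphocyte markers were near 0 in both groups, at a sum of 0.138 to 1.09 FPKM in Flox and 0.412 to 0.652 FPKM in cKO, with Cd3d at 0 in all cKO libraries and in all Flox libraries but Flox17. Markers of several other cell types were lower in cKO as well, but not those of duct cells. Of the endothelial markers 5 of 6 tested passed (median log2 fold change -0.72, summed level 83.0 to 152 FPKM in Flox and 65.9 to 86.9 FPKM in cKO), of the fibroblast and stellate markers 3 of 7 (median -0.56), of the β-cell markers 4 of 8 and of the alpha-cell markers 2 of 4. By the same rule 12.8% of all genes tested were lower and 1.02% higher. Duct markers had a median of 0.49, with 4 of 5 positive and 1 passing as higher. The part of these cell types in the result was not tested.

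The count turned on single libraries, and the count over all genes moved with it. Without Flox17 24 of 36 members were lower (66.7%, beside 57.2% of all genes) and Ifi27 was higher, and without Flox16 11 of 32 were lower (34.4%, beside 21.3%). Without Flox20 or Flox21 only Cmpk2 was lower, beside 1.01% and 0.997% of all genes, and without cKO12 2 members were, beside 2.78%. Without cKO9 or cKO38 none passed in limma (13 and 11 at an unadjusted p under 0.05), beside 0.144% and 0.608% of all genes. The study's heatmaps show 3 libraries per group, and with these 21 of 35 members were lower (60%, beside 63.5% of all genes) and Ifi27 was higher, with a median of -0.65 beside -0.51 for all genes.

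Upstream of these genes, the interferons themselves were hardly detected in chow islets. Of 7 ligand genes listed, only Ifng was in the chow table, at 0.0248 FPKM in Flox20, 0.0259 FPKM in Flox21 and 0 in the other 6 libraries. Among 8 receptor and kinase genes tested, Ifngr1 and Jak1 were lower in cKO, with log2 fold changes of -0.60 and -0.65 (adjusted p = 0.0439 and 0.0326), and none was higher. None of the 11 signalling genes tested passed. At that threshold 12.8% of all genes tested were lower and 1.02% higher, with a median log2 fold change of -0.34. With the acinar covariate 0 of all 11804 genes passed, Ifngr1 and Jak1 included.

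Of the 9 genes of MHC class I presentation tested, B2m, the light chain, and H2-D1, a heavy chain, were lower in cKO. Of all genes tested 12.8% were lower by that rule, and with the acinar covariate no gene passed. B2m was at 86.3, 72.0, 141 and 168 FPKM in Flox and at 54.7, 60.3, 47.0 and 44.3 FPKM in cKO, without overlap (log2 fold change -1.10 ± 0.24, adjusted p = 0.0229). H2-D1 had -0.80 ± 0.22 (adjusted p = 0.0398), and the peptide transporter gene Tap2 had -0.09 ± 0.23 (adjusted p = 0.759). The list had a median of -0.76, or -0.42 relative to all genes tested, lower than that of the interferon-stimulated genes. Flox20 and Flox21 were the highest libraries for B2m.

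The comparison of OE with Ctrl asked how B7-H4 expressed from the virus in islets of HFD-fed mice bears on these genes, and no member passed. Of 40 genes tested with limma, 0 were higher and 0 lower at an adjusted p under 0.05, and 0 had an unadjusted p under 0.05. Of all 12132 genes tested, 0.033% were higher and 0.0% lower at that adjusted p. At an unadjusted p under 0.05, 677 were higher and 101 lower. No member had groups without overlap, beside 5.61% of all genes in which OE was higher and 0.964% in which it was lower. The Ctrl libraries were far apart from each other, with a median SD over members of 1.19 on the log2 scale, beside 0.897 over all genes tested. In OE it was 0.36 beside 0.115, in Flox 0.36 beside 0.318 and in cKO 0.20 beside 0.172.

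Ctrl5 stood apart in most of these genes. It had the highest value of all HFD libraries in 34 of 40 members (85%), where it was highest in 43.2% of all genes tested. After median-of-ratios scaling it was still highest in 32 of 40 members (80%) against 18.2% of all genes. Its level exceeded that of the next Ctrl library more than 2-fold in 25 of 40 members (62.5%) and more than 5-fold in 5 (12.5%), beside 5.88% and 0.692% of all genes. Without Ctrl5 only 37 members and 11924 of all genes passed the filter on mean level. Zbp1, Ifit2 and Ifit3b entered through Ctrl5 alone, and their folds of 12.8, 2.94 and 3.90 are among those counted. These counts therefore describe Ctrl5 and are not a test.

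The GTPases stood furthest above the other Ctrl libraries in Ctrl5. Iigp1, an IRG that coats the vacuoles of parasites and bacteria, was at 0.830, 0.813, 0.559 and 23.3 FPKM in Ctrl1, Ctrl2, Ctrl3 and Ctrl5 and at 0.620, 0.521, 3.89 and 13.0 FPKM in OE1, OE2, OE3 and OE4. Ctrl5 and OE4 were the high libraries, OE3 lay between, and the other 5 were at or under 0.830 FPKM. In steps of 1 fragment these were 2314 in Ctrl5, 1570 in OE4 and 59 in Ctrl3. Igtp was at 4.34, 2.69, 1.17 and 32.1 FPKM in Ctrl and at 5.19, 3.90, 8.32 and 16.8 FPKM in OE, with the same order of high libraries.

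Gbp2 was at 2.35, 0.810, 0.897 and 21.4 FPKM in Ctrl and at 1.19, 1.08, 4.01 and 8.91 FPKM in OE. Gbp3 was at 1.01, 0.812, 0.575 and 7.75 FPKM in Ctrl and at 1.07, 0.472, 1.44 and 2.86 FPKM in OE. Again Ctrl5, OE4 and OE3 came first in that order. Gbp7 differed, with 3.86 FPKM in Ctrl5 and 4.37 FPKM in OE4. Over the 6 GTPases, Ctrl5 was a median of 7.53 times the next Ctrl library, or 4.41 times after median-of-ratios scaling. Zbp1 followed them, at 0.533, 0.357, 0.258 and 6.81 FPKM in Ctrl and at 0.265, 0.0135, 0.615 and 1.20 FPKM in OE, the OE2 value being 1 fragment step.

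The other roles lay closer to the next Ctrl library. The IFIT genes were a median of 3.35 times that library (2.26 after median-of-ratios scaling), the OAS genes 3.34 times (2.23), and Isg15 with Usp18 2.71 times (1.69). The sensors were at 2.47 times (1.51 after scaling), the transcription factors at 2.39 times (2.05) and the other effectors at 1.53 times (1.36). Irf7 was at 3.61, 2.27, 0.848 and 16.1 FPKM in Ctrl and at 4.91, 2.60, 4.70 and 4.87 FPKM in OE, so that 1 Ctrl library lay above all others and OE2 lay below the rest of its group. Isg15 was at 1.43, 0.550, 0.565 and 6.02 FPKM in Ctrl and at 1.29, 0.347, 1.08 and 0.610 FPKM in OE. Cmpk2 differed from them. It was at 15.5, 5.49, 1.57 and 9.29 FPKM in Ctrl and at 10.97, 10.9, 14.1 and 18.6 FPKM in OE, with Ctrl5 under Ctrl1.

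**Figure D4:**
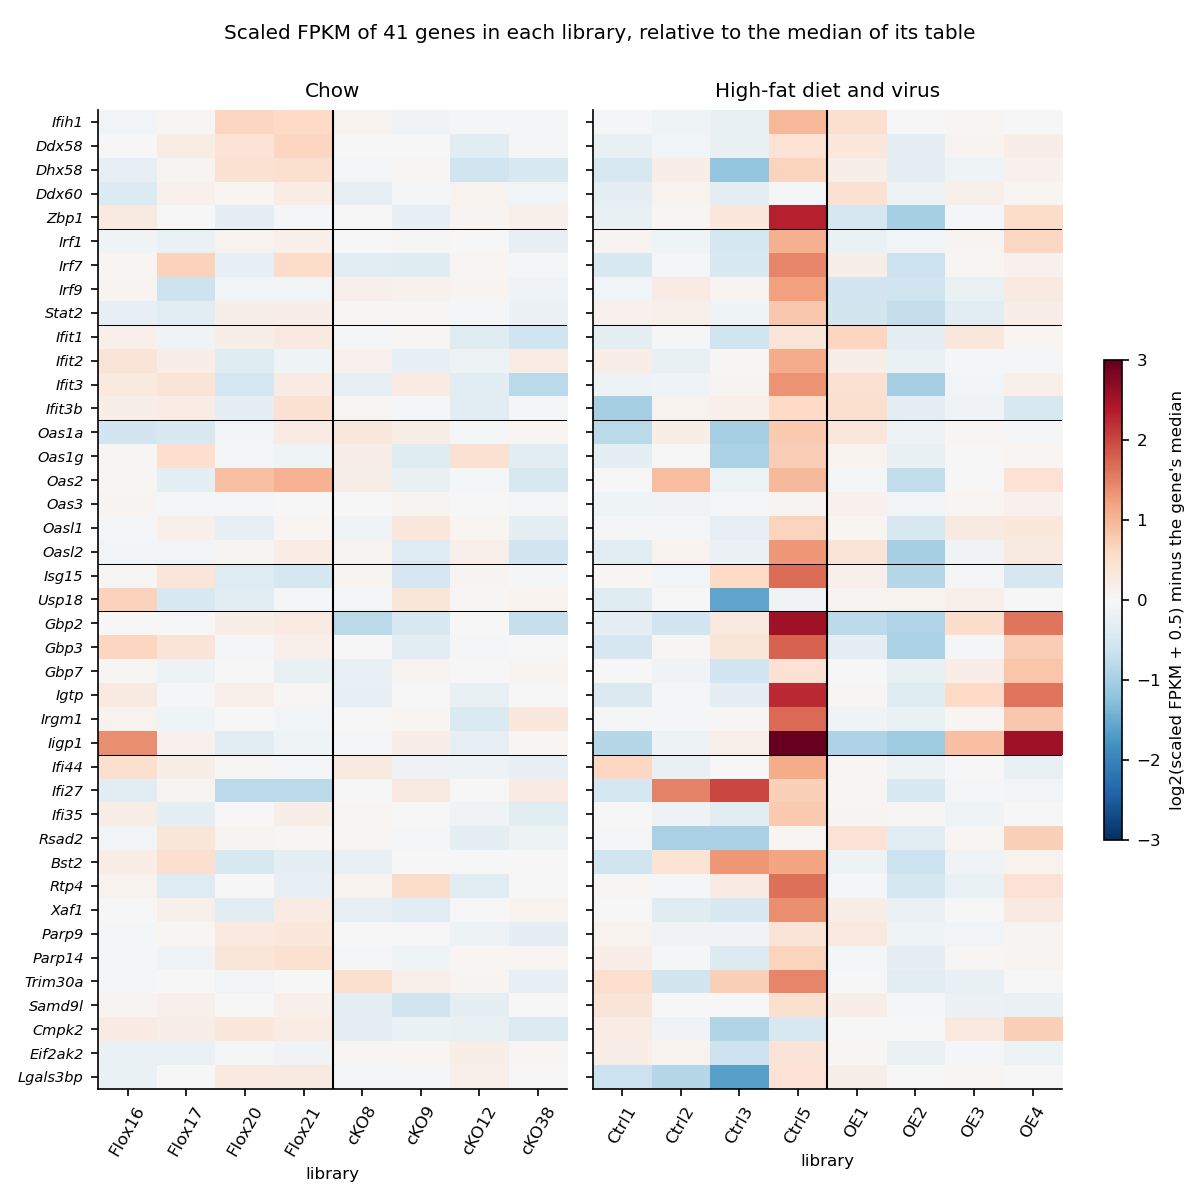
Median-of-ratios scaled FPKM + 0.5 of 41 genes on a log2 scale, each relative to the gene's median in its table, chow libraries on the left and HFD libraries on the right, with genes ordered by role and lines between roles. Ctrl5 is the red column, deepest in Iigp1, Gbp2, Zbp1 and Igtp, and OE4 is above OE1 to OE3 in the 6 GTPases.

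Within OE the libraries also differed, though the virus was the same. OE2 was lowest of the 4 in 35 of 41 members, where it was lowest in 19.1% of all genes tested. It was lowest in all 6 OAS genes, all 6 GTPases and all 5 sensors. OE2 had the most Vtcn1, 128 FPKM, against 40.0, 74.1 and 60.5 FPKM in OE1, OE3 and OE4, and with 4 libraries no relation was tested.

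The highest OE library depended on the role. OE4 was highest in all 6 GTPases and in 3 of 4 transcription factors, and OE1 was highest in all 4 IFIT genes and in 4 of 5 sensors, beside 26.9% and 21.2% of all genes tested. Ifit1 was at 2.51, 1.06, 1.93 and 1.47 FPKM in OE1 to OE4, and at 1.23, 0.720, 0.199 and 2.43 FPKM in Ctrl. Ifit1 thus reached in OE1 the level of Ctrl5, while Iigp1 in OE1 stayed at 0.620 FPKM.

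Ifng was detected in the libraries with high GTPases. It was at 0, 0.0245, 0 and 2.17 FPKM in Ctrl1, Ctrl2, Ctrl3 and Ctrl5 and at 0, 0.0241, 0.202 and 1.05 FPKM in OE1, OE2, OE3 and OE4. Cxcl9, a T-cell attracting chemokine, was at 0.0117, 0.174, 0.0113 and 11.9 FPKM in Ctrl and at 0.158, 0.01003, 0.495 and 2.13 FPKM in OE, the same libraries in the same order. Cxcl10 was at 0.646, 1.08, 0.149 and 10.4 FPKM in Ctrl and at 3.15, 0.953, 4.41 and 12.2 FPKM in OE, highest in OE4. Of the other ligand genes listed, Ifnl2 alone was in the HFD table, at 0.0399 FPKM in OE4 and 0 elsewhere.

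T-lymphocyte, macrophage, endothelial and stromal markers were highest in Ctrl5 as deposited. After median-of-ratios scaling the fibroblast and stellate sum was higher in Ctrl3 (186) than in Ctrl5 (114), and the T-lymphocyte, macrophage and endothelial sums stayed highest in Ctrl5. The 7 T-lymphocyte markers in the table summed to 21.7 FPKM in Ctrl5, 3.96 FPKM in OE4, 1.23 FPKM in OE3 and 0.467 to 1.70 FPKM in the other HFD libraries, with all 7 above 0 in Ctrl2, Ctrl5, OE1 and OE4. The 11 macrophage markers summed to 549 FPKM in Ctrl5 against 42.7 to 168 FPKM in the other Ctrl libraries and 87.4 to 112 FPKM in OE. Endothelial markers summed to 582 FPKM in Ctrl5, 359 FPKM in Ctrl1, 54.3 and 74.1 FPKM in Ctrl2 and Ctrl3 and 160 to 203 FPKM in OE, and fibroblast and stellate markers to 168 FPKM in Ctrl5, 36.2 to 116 FPKM in the other Ctrl libraries and 32.1 to 38.9 FPKM in OE. B-lymphocyte markers were at 10.9 FPKM in Ctrl5, 1.15 to 5.11 FPKM in the other Ctrl libraries and 8.01 to 9.81 FPKM in OE. Ctrl5 also had the least acinar RNA, 2.03%, and the most alpha-cell marker RNA, 13.6% of FPKM. The part of these cells in the levels of Ctrl5 and OE4 was not tested.

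**Figure D5:**
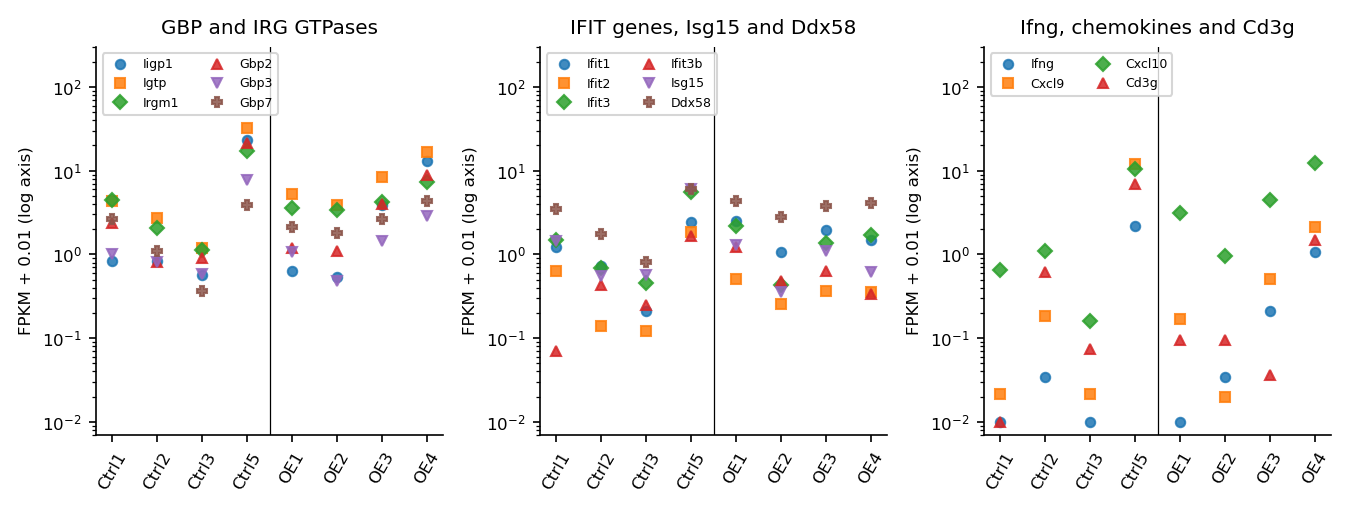
FPKM + 0.01 on a log axis in the 8 HFD libraries for the 6 GTPases, for the IFIT genes with Isg15 and Ddx58, and for Ifng, Cxcl9, Cxcl10 and Cd3g. Ifng and each GTPase except Gbp7 are highest in Ctrl5 and next in OE4, while among OE libraries the 4 IFIT genes are highest in OE1.

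At the other end, Ctrl3 was lowest of the HFD libraries in 30 of 40 members (75%) beside 85.9% of all genes, with 70.1% of its FPKM in acinar enzymes. The result therefore turned on which Ctrl library was included. With all libraries the median log2 fold change of the members was 0.19, beside 0.44 for all genes, a difference of -0.24. Of 40 members 14 were negative, beside 1915 of all 12132 genes. Without Ctrl5 the median was 0.70 beside 0.68 for all genes, and 2 of 37 members were negative, beside 988 of all 11924 genes. There 8 members were higher at an unadjusted p under 0.05, beside 2358 of all genes, and none at an adjusted p. Without Ctrl3 the median was -0.25 beside 0.11, with 30 of 40 members negative, beside 4474 of all 12224 genes. With median-of-ratios scaling and all libraries it was -0.11, and 27 of 39 members were negative, beside 6106 of all 12044 genes.

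The largest log2 fold changes toward OE were in Lgals3bp (1.28 ± 0.64), Cmpk2 (1.06 ± 0.55), Rsad2 (1.05 ± 0.53) and Usp18 (1.02 ± 0.56), each with a limma adjusted p of 0.591. Rsad2 was at 4.22, 0.847, 0.443 and 4.64 FPKM in Ctrl and at 5.09, 2.80, 3.98 and 6.43 FPKM in OE. The lowest values of these genes were in the acinar-rich Ctrl2 and Ctrl3, but not all low values were. Ctrl1 was also below every OE library for Lgals3bp (190 FPKM) and for Usp18 (7.90 FPKM, with OE at 8.59 to 9.91 FPKM). For Cmpk2, Ctrl5 was below every OE library at 9.29 FPKM, with OE at 10.9 to 18.6 FPKM. Ctrl5 lay above every OE library for Lgals3bp, and Ctrl1 and Ctrl5 lay within the range of OE for Rsad2. With median-of-ratios scaling the log2 fold changes were 0.73 for Lgals3bp, 0.57 for Cmpk2, 0.71 for Rsad2 and 0.59 for Usp18. The 2 lowest, Zbp1 at -0.68 ± 0.63 and Isg15 at -0.60 ± 0.49, had adjusted p = 0.616 and 0.600, and their Ctrl means rested on Ctrl5.

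By role, the medians in OE minus Ctrl were 0.42 for sensors, 0.06 for transcription factors, 0.06 for IFIT genes, 0.13 for OAS genes, 0.16 for GTPases and 0.17 for other effectors, each below the 0.44 of all genes tested. With median-of-ratios scaling, under which the median of all genes was -0.01, the sensors were at 0.10 and these other roles between -0.39 and -0.04, so the sign of a role median here follows the scaling of all genes. Relative to all genes the transcription factors were at -0.38 in both scalings, the GTPases at -0.27 and -0.22, and the sensors at -0.02 and 0.11. Of the other genes of the pathway, 0 of 9 receptor and kinase genes, 0 of 13 signalling genes, 0 of 3 chemokines and 0 of 10 MHC class I genes passed in either direction.

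Across diets, which were never in the same table and were not tested, 4 of 41 members (9.76%) had every OE library above every Flox library, beside 14.9% of the 16815 genes in both tables. They were Lgals3bp, Irf1, Oas1a and Oas1g. Irf1, a transcription factor of the interferon gamma response, was at 6.63, 4.99, 9.13 and 10.1 FPKM in Flox and at 10.4, 11.8, 13.5 and 19.3 FPKM in OE. These groups differ in diet, virus and table at once, which cannot be told apart.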

How the data were processed

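The authors calculated FPKM (fragments per kilobase of transcript, scaled to mapped reads) per gene from islet RNA libraries sequenced on an Illumina NovaSeq and deposited them in separate tables for the chow and HFD libraries. The submitters' notes name build mm10, and the aligner and counter are not given in the sources used here. Each value column matched 1 library.

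Groups of 4 libraries were compared by limma 3.58.1 (R 4.3.3), two-sided, with a variance trend and robust moderation, after log2(FPKM + 0.5). A gene entered when its FPKM averaged 0.5 or more across both groups. Adjusted p stands for the Benjamini-Hochberg value over every gene entered. A fold change on this scale understates the change of low genes. Members under 0.5 FPKM were 5 of 41 in chow and 1 of 41 on HFD and have values only. Whether each library is 1 mouse is not given in the labels, and p-values measure the spread between these libraries.

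Alternatives were pseudocounts of 1 and 0.1, no filter, a minimum mean of 1 FPKM, median-of-ratios scaling, scaling to the sum without acinar genes, no trend or robust fitting, a replicate block, acinar and macrophage covariates, the 3 libraries per group of the study's heatmaps, and each library left out. Median-of-ratios scaling without Flox17, Ctrl5 or Ctrl3 was added after seeing the data. The fit was tested on simulated data.

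Fragment steps were taken as the value that made a gene's FPKM whole multiples within 0.02 after correction for relative depth, which held for 96.9 and 99.6% of the low genes tried, and exon lengths of GENCODE gave the depth. No interval from counts is given. Steps are known up to a factor, so no count test was run.

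The genes, role groups, marker lists and tests were chosen with earlier results of these data known. Values in each library are given for genes under an adjusted p of 0.05, genes whose groups did not overlap, the 5 with the highest mean FPKM, and the 5 with the largest SD in each table. Other genes are examples of their role, chosen with their values known.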

Additional observations from a re-analysis of the deposited data

Results flagged for a closer look

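In 64 sets of 4 libraries (16 named genes in 4 groups), 8 held a library whose gap to the nearest other exceeded Dixon's critical share of the group's range. Chance gives about 1 in 20 groups of unselected genes. Several of these 16 genes were chosen for their spread, Zbp1, Gbp2, Igtp and Iigp1 among them, so the number is a description and not a test. Of the 8, 6 were in Ctrl5, which was high for Bst2 (43.6 FPKM), Zbp1 (6.81 FPKM), Gbp2 (21.4 FPKM), Gbp3 (7.75 FPKM), Igtp (32.1 FPKM) and Iigp1 (23.3 FPKM). After median-of-ratios scaling Bst2 was higher in Ctrl3 (32.3) than in Ctrl5 (29.6). These genes share 1 library and are not independent of each other. Flox16 was high for Iigp1 (2.08 FPKM), and OE2 was low for Irf7 (2.60 FPKM).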

How the results depend on the processing

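The 6 genes under an adjusted p of 0.05 in cKO, all lower, became 0 without a filter on low values, where 0 of all 17361 genes passed. They became 0 when libraries were scaled to the sum without acinar genes, beside 0.227% of all genes lower and 0.533% higher. The acinar covariate left 0, as it did of all genes, and the macrophage covariate 1, beside 0.398% lower and 0.102% higher. Median-of-ratios scaling left 1, beside 1.25% lower and 1.13% higher. With that scaling and without Flox17 there were 2 (1 lower, 1 higher), beside 4.64% lower and 6.08% higher. The 3 libraries per group of the heatmaps gave 22 (21 lower, 1 higher), beside 63.5% lower and 2.68% higher. Ifi27 was the higher gene each time. Leaving out 1 library gave 0 to 25 (0 without cKO9 or cKO38, 25 without Flox17, of which 24 lower and Ifi27 higher). Counts of 4 to 6 came from the other pseudocounts, a higher minimum and plain limma, beside 8.25 to 16% of all genes lower. The median log2 fold change of -0.46 became -0.16 with median-of-ratios scaling, -0.17 with that scaling and without Flox17, -0.22 with scaling without acinar genes and -0.045 with the acinar covariate, and relative to all genes it stayed negative in all 20 alternatives. Bst2 turned to 0.12 with median-of-ratios scaling and without Flox17. The cause was not tested.

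The count of 0 on HFD became 2 higher (5%) with the acinar covariate and 21 higher (52.5%) with the macrophage covariate. Of all genes, 1252 (10.3%) and 7442 (61.3%) were higher there. The count of members stayed 0 in the other alternatives. The median of 0.19 ran from -0.25 without Ctrl3 to 0.70 without Ctrl5, and was -0.33 with median-of-ratios scaling and without Ctrl3.

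Replicate numbers did not pair the libraries. Same-numbered libraries had correlations of their deviations of -0.19, 0.12, -0.01 and -0.21 in chow and -0.13, -0.10, -0.02 and 0.10 on HFD. The replicate block gave 13 lower genes in chow (36.1%, beside 20.8% of all genes lower) and 0 calls on HFD. Some genes under 1 FPKM rest on few fragments, and the number differs between genes. In Flox16, Isg15 at 0.842 FPKM was 20 steps and Ddx60 at 0.518 FPKM was 115.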
